A study of Mus musculus with 15 samples.

Results

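The Notch receptors Notch1 to Notch4, the Notch ligands Jag1, Jag2 and Dll1 and the target genes Hes1 and Hey1 were followed in MC3T3 cells, an osteoblast precursor line from mouse calvaria, here its clone 1b. Members were chosen by symbol: every probe set whose only gene symbol in the platform annotation was 1 of these 9 names. This gave 12 of the 12422 probe sets other than controls, standing for 8 genes; no probe set had Jag1 as its only symbol. RNA was measured on 15 single-colour arrays in 5 groups of 3. One group had only growth medium (day 0). GP, beta-glycerol phosphate, a phosphate source for mineral, was given for 1 or 3 days without and with ascorbic acid (a cofactor of collagen hydroxylation) and the bone-inducing growth factor BMP-2. Cells given all 3 additions are called treated. Each array carried a preparation number from 1 to 3, called the replicate; the labels leave unsaid whether each preparation was its own culture, and the p-values then cover only the scatter among these arrays, part of which may be technical. Ascorbic acid and BMP-2 were added together, so their effects cannot be told apart, and the line is a single clone.

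Notch receptors are single-pass membrane proteins that are cut when a Delta or Jagged ligand on a neighbouring cell binds them. The released intracellular domain joins the DNA-binding protein RBPJ, which otherwise holds target genes down with corepressors, and turns on genes of the Hes and Hey families, whose products are basic helix-loop-helix repressors. In the osteoblast lineage Notch signalling is known to hold back differentiation, and Hey1 is also known as a gene that BMP signalling raises.

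In these arrays Hey1 was higher in every treated culture than in every culture of the other 3 groups, and Rbpj was lower in the same comparison. Over all tested probe sets, 1.5% were higher and 1.85% lower in all 6 treated arrays than in all 9 others. Between treated and GP cultures Rbpj was called at both days, with and without the replicate as a block. Hey1 was called there only at day 3 with the block (adjusted p = 0.0244, against 0.0784 without it). That Hey1 call was lost without GP day 3 replicate 3 or any 1 of the treated day 3 arrays. Hes1 overlapped between groups. At day 3 Hes1 was higher in treated than in GP cultures within each replicate, and this difference was not called (adjusted p = 0.541). Of the receptors, Notch1 (both tested probe sets) and Notch3 were lower in treated than in GP cultures within each replicate at day 3. Neither Notch1 probe set was called there. Notch3 was called only with the replicate as a block (adjusted p = 0.0316, against 0.133 without it). The share of all tested probe sets with the same direction in every replicate was not counted. Signals for Dll1, Jag2 and Notch4 were too low to test. Probe set values are linear intensities in the submitters' units, and differences are log2 values with the standard error (SE) of a limma fit across all 15 arrays. The SE is that of the fit without the replicate as a block, except where it is given with the block. A floor of 2.8, which is the 10th percentile of the table, was put under the intensities before log2 was taken. Probe sets with a mean signal, on the log2 scale, below that of an intensity of 22.3, the 40th percentile, were not tested (the filter). A difference was called where its p, adjusted by Benjamini-Hochberg over all 7453 tested probe sets, was under 0.05. Intensities of different probe sets are on different scales and were not set against each other. The exception is the cell type markers, given as sums over a list, in which the brightest probe sets weigh most.

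The promoters of Rbpj and Notch3 are shown because these are the DNA-binding protein and the receptor called between treated and GP cultures at day 3, Notch3 only with the replicate as a block. Each is 240 bases, from 250 to 11 bases before the RefSeq start, 5′ to 3′ on the gene's strand, from RefSeq on GRCm38.p6, a build that the files do not name. Rbpj has a pair of promoter entries, of which the one with the lower coordinate is shown; it lies at chr5:53590096-53590335 on the plus strand, and capitals mark TGGGAA on either strand, the core that RBPJ protein binds. Notch3 lies at chr17:32166901-32167140 on the minus strand, and capitals mark CAGAC on either strand, the short Smad box.
Rbpj: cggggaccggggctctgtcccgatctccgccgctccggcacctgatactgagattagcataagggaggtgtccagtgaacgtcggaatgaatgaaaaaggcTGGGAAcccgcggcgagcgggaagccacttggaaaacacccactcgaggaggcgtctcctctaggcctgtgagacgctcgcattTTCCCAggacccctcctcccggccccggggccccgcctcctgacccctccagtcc
Notch3: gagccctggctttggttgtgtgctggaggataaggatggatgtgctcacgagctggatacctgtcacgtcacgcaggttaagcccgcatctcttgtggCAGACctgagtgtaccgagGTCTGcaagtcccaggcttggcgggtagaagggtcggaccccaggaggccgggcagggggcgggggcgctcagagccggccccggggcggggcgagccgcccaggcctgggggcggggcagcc
The Rbpj window held 2 matches, which begin 149 and 65 bases before the start, and the Notch3 window held 2, which begin 152 and 133 bases before it. Among 32851 promoter windows of the same length, 20.8% held TGGGAA and 40.9% held CAGAC at least once. The share with 2 or more matches was not counted. The 7 windows of the 6 members on the array that have an entry held TGGGAA in 0 and CAGAC in 3, of Dll1 and Notch3. CACNAG, the N box that Hes proteins bind, was in 35.6% of all windows and in 3 of the 7, those of Notch1, Notch2 and Notch3. CANNTG, the E box, was in 65% of all windows and in 3 of the 7, of Dll1 and Notch4, and GGCGCC, a GC-rich box reported for BMP-responsive genes, was in 9.08% of all and in 1 of the 7, of Dll1. A match is a description of the letters, not a binding site. Hes1 and Hey1 were not in the promoter table.

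The deposited values of each array had a common trimmed mean of 150, the percentage of values at the floor was 12.1 to 14.3 in replicate 3 and lower on the other arrays, down to 7.29, and GP day 3 replicate 3 had an actin 3′ to 5′ ratio of 2.11 where the other arrays had 1.00 to 1.34. Alpl, the alkaline phosphatase of bone-forming cells, was 25 ± 7.31 (SD, n = 3) in GP and 630 ± 310 in treated cultures at day 3, a log2 difference of 4.58 ± 0.50 (adjusted p = 0.000406). Of 9 osteoblast and fibroblast markers, 5 were on the array and 4 were tested (Col1a1, Col1a2, Sparc and Alpl), with sums of 16100 to 26700. Endothelial markers, of interest because that cell type uses Notch, were tested for 1 of 7 (Eng), and the other 6 lay below the filter. Sums over the endothelial list lay between 159 and 292. Of the skeletal muscle markers 3 of 5 were tested (Myod1, Myog and Ckm), with sums over the list between 106 and 175, of the neural markers 2 of 4 (Tubb3 and Gfap), between 469 and 1170, and of the macrophage and leukocyte markers 1 of 5 on the array (Csf1r), between 38.4 and 106. No chondrocyte or adipocyte marker on the array reached the filter. The part of these signals in the results was not tested. Fewer cells of a type and less RNA per cell cannot be told apart in these bulk samples.

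Jag2, a Jagged-class ligand, had intensities of 1.8 to 4.7 on its probe set 92510_at, with 6 of 15 arrays at the floor and all 15 under the filter. Dll1, a Delta-class ligand, had intensities of 4.4 to 28 (median 8.90) on 92931_at, where 13 of 15 arrays were under the filter. The 2 values above the filter were 28 in GP day 1 replicate 1 and 27.8 in medium day 0 replicate 3, and the other arrays of those groups were at 6.1 to 9.6. The second Dll1 probe set, 161634_r_at, whose suffix marks a relaxed probe design, was at the floor on 14 arrays and at 12.9 in treated day 3 replicate 3. Neither of these ligands had a level that could be followed between groups, and none of these probe sets was called in any contrast when the filter was dropped.

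**Figure D1:**
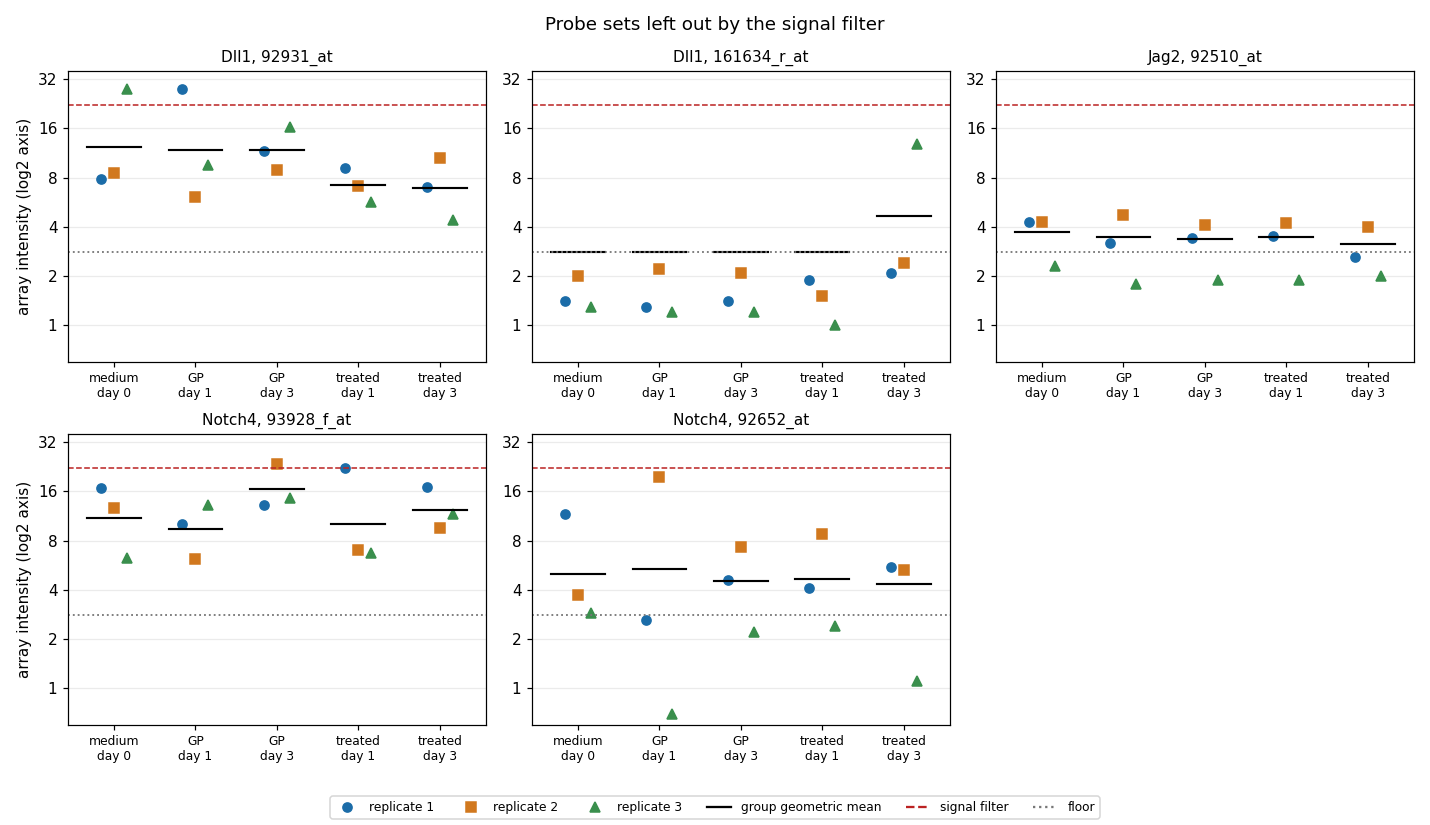
Intensity on a log2 axis for the 5 member probe sets left out by the signal filter (Dll1, Jag2 and Notch4), by group; points are arrays, coloured and shaped by replicate, and black bars are group geometric means of floored values. The dashed line is the filter at 22.3 and the dotted line is the floor at 2.8; most points lie below the dashed line.

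Notch4, the receptor known from endothelium, was under the filter on most arrays. Its probe set 92652_at lay at 0.7 to 19.6, with 5 arrays at the floor and all 15 under the filter. The other, 93928_f_at, whose suffix marks sequence shared within a family, lay at 6.2 to 23.4 with 14 arrays under the filter. Notch1, Notch2 and Notch3 were tested on 5 probe sets.

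Notch3, a receptor known from mural cells and also found in osteoblast precursors, was at 170.7, 115 and 144.3 in replicates 1, 2 and 3 of medium day 0. GP cultures had 106.2, 104.1 and 149.6 at day 1, and 183.6, 113.6 and 158.7 at day 3. Treated cultures had 96.6, 72 and 133.5 at day 1, and 91.9, 97.2 and 80.6 at day 3. At day 3 every treated culture was below every GP culture and every day 0 culture, while at day 1 treated and GP values overlapped. Of all tested probe sets, 20.1% were apart in either direction between treated and GP at day 3. Between treated day 3 and day 0 the share was 19.4%. The day 3 log2 difference, treated minus GP, was -0.73 ± 0.25 and was not called without the replicate (adjusted p = 0.133); with the replicate as a block it was called (adjusted p = 0.0316). The differences within replicates 1, 2 and 3 were -0.998, -0.225 and -0.98. The blocked call did not hold when a single array of either group was left out (adjusted p = 0.0558 to 0.148), except treated day 3 replicate 2 (adjusted p = 0.0144). At day 1 the difference was -0.28 ± 0.25 (adjusted p = 0.835), and the test of the difference between the days gave -0.46 ± 0.36 (adjusted p = 1.00), so the effect was not shown to differ between them. Against day 0 medium, treated day 3 had a log2 difference of -0.66 ± 0.25, not called (adjusted p = 0.224, or 0.0581 in the blocked fit). Mural markers, which could bear on Notch3, were summed over the list at 3130 to 3890 in GP day 3 and 3390 to 3810 in treated day 3 cultures, with Acta2 and Pdgfrb tested of 5 on the array.

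Notch1, the receptor most studied in skeletal precursors, had intensities on 97497_at of 165.7, 132.1 and 161.7 in medium day 0, of 136.4, 202.8 and 166.4 in GP day 1, and of 248.3, 259.9 and 188.6 in GP day 3. In treated cultures it was at 9.2, 72.6 and 143 at day 1 and at 119.1, 115.7 and 155.9 at day 3. The treated day 1 values spread over the widest range of the 5 groups, and replicate 3 there lay within the GP day 1 values, whereas every treated day 3 value lay below every GP day 3 value. Treated and GP values at day 3 were apart in either direction in 20.1% of all tested probe sets. The day 1 difference of -1.86 ± 0.67 was not called (adjusted p = 0.271, and 0.0950 with the block). Within replicates 1, 2 and 3 it was -3.89, -1.48 and -0.22, and without the lowest array, treated day 1 replicate 1, it was -0.71 (adjusted p = 0.405). In the blocked fit without treated day 1 replicate 3 it was called (-2.68, adjusted p = 0.0196). At day 3 the difference was -0.83 ± 0.67 (adjusted p = 0.60), and within replicates 1, 2 and 3 it was -1.06, -1.17 and -0.28. Every GP day 3 value lay above every day 0 value, as for 7.82% of all tested probe sets apart in either direction. Treated day 3 and day 0 values overlapped. Against day 0, GP day 3 differed by 0.59 ± 0.67 and treated day 3 by -0.24 ± 0.67, neither called.

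The second Notch1 probe set, 162204_r_at, went with the first in some contrasts and not in others. It was at 49.3, 28.8 and 32.6 in medium day 0, and at 24.8, 19.9 and 31.3 in treated day 1 against 16.7, 41.7 and 23.2 in GP day 1. Treated day 3 had 30.4, 34.8 and 46.7, against 38.3, 45.7 and 58.8 in GP day 3. Treated minus GP was -0.02 ± 0.37 at day 1 and -0.35 ± 0.37 at day 3, neither called (adjusted p = 0.995 and 0.715). Within replicates 1, 2 and 3 the day 1 difference was 0.57, -1.07 and 0.43, of both signs, and the day 3 difference was -0.33, -0.39 and -0.33. Both probe sets were lower in all 3 replicates in treated against GP cultures at day 3 and in treated day 1 against day 0. Both were higher in all 3 in GP day 3 against GP day 1 and in treated day 3 against treated day 1. These contrasts share arrays. In GP day 3 against day 0 both were higher on average, by 0.59 on 97497_at (3 replicates higher) and 0.38 on 162204_r_at (2 higher). In the contrasts that follow the probe sets parted. GP day 1 against day 0 was 0.13 on 97497_at and -0.51 on 162204_r_at, and the difference between the days was 1.03 and -0.33. Treated day 3 against day 0 was lower in 3 replicates on 97497_at and in 1 on 162204_r_at. Over the 15 arrays the 2 Notch1 probe sets correlated with r = 0.44, or 0.40 after each replicate's mean was removed, which describes arrays that share preparations.

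Notch2, a receptor with broad expression in mesenchyme, did not follow the groups. On 104188_at replicate 3 was at 160 to 221.7 in the 5 groups while replicates 1 and 2 were at 71.3 to 121.6, so this probe set separated by preparation. Such a full separation of replicate 3 from the other arrays was found in 7.65% of tested probe sets, 309 above and 261 below. The second Notch2 probe set, 101342_at, had replicate 3 at the low end, at 9.3 to 27.8, with replicates 1 and 2 at 17.8 to 69.5 and the ranges overlapping. The 2 probe sets correlated with r = -0.33 over the arrays and 0.66 once the replicate means were removed. Treated minus GP was -0.03 ± 0.44 at day 1 and -0.06 ± 0.44 at day 3 on 104188_at, and 0.44 ± 0.73 and -0.23 ± 0.73 on 101342_at, with adjusted p of 0.927 or above in all 4. With the replicate as a block the SE was 0.19 on 104188_at and 0.59 on 101342_at. The adjusted p was then 0.762 or above in all 4.

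**Figure D2:**
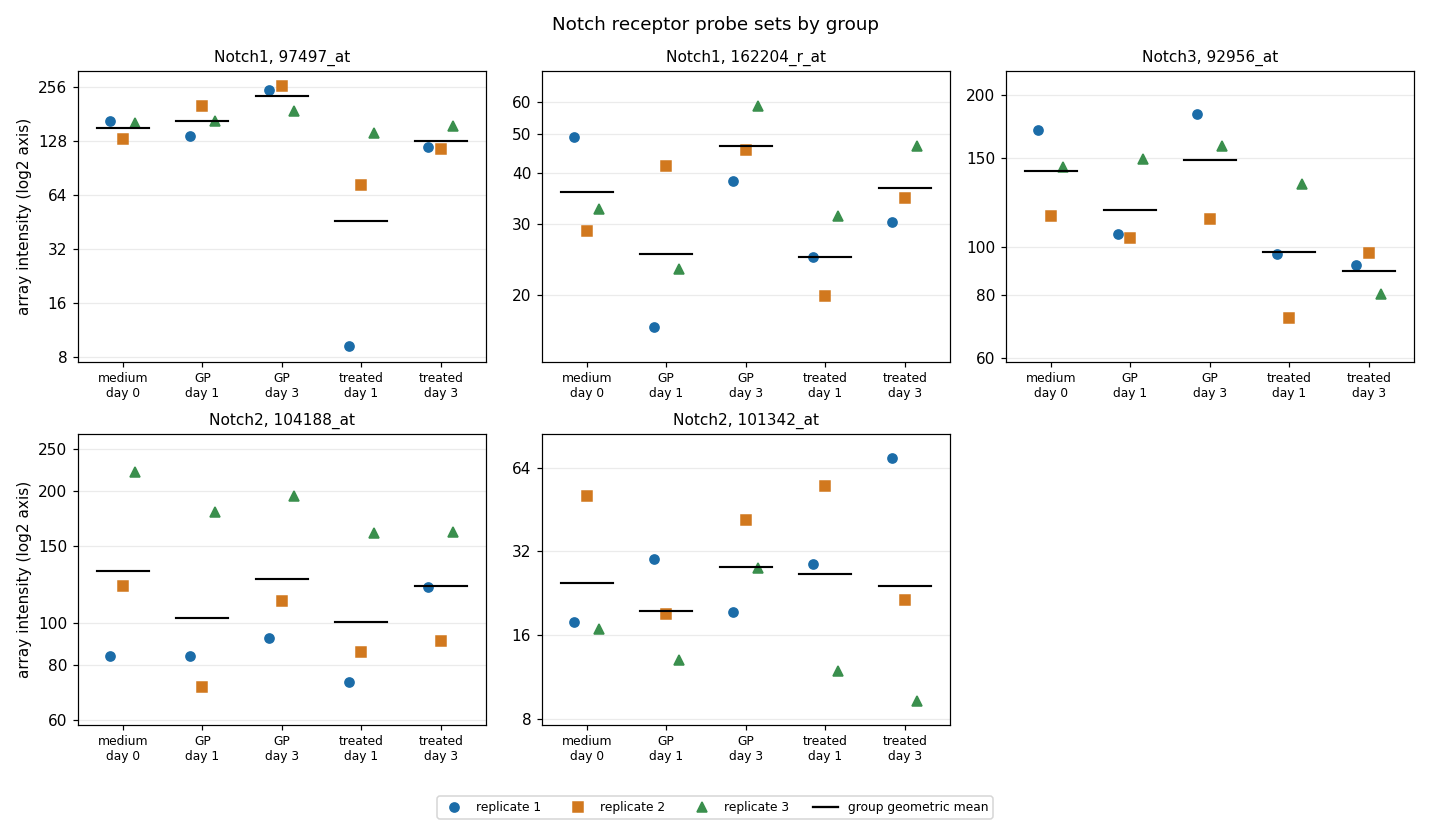
Intensity on a log2 axis for the tested Notch1, Notch2 and Notch3 probe sets by group; points are arrays, coloured and shaped by replicate, and black bars are group geometric means. Notch3 values of treated day 3 lie below those of GP day 3 (80.6 to 97.2 against 113.6 to 183.6), and on Notch2 104188_at the replicate 3 points lie above all others.

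Hey1, a repressor of the Hes-related family, was at 11.9, 16.9 and 17.2 in medium day 0, below the filter value on all 3 arrays. GP cultures had 41.5, 50.9 and 24.3 at day 1, and 58.1, 47.9 and 6.9 at day 3. Treated cultures had 68.2, 81.5 and 131.8 at day 1, and 113.1, 177.4 and 81.3 at day 3. Every treated value was above every value of the other 3 groups, as in 1.5% of all tested probe sets. Every GP day 1 value was above every day 0 value, and these groups were apart in 9.18% of all tested probe sets. The lowest value of the 15, in GP day 3 replicate 3, came from the array with the actin ratio of 2.11.

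Treated minus GP for Hey1 was 1.28 ± 0.63 at day 1 (adjusted p = 0.487) and 2.14 ± 0.63 at day 3 (adjusted p = 0.0784), so neither was called; with the replicate as a block the day 3 difference was called (adjusted p = 0.0244) and the day 1 difference was not (adjusted p = 0.229). The differences within replicates 1, 2 and 3 were 0.72, 0.68 and 2.44 at day 1, and 0.96, 1.89 and 3.56 at day 3, all above 0. Without GP day 3 replicate 3 the day 3 difference was 1.16 (adjusted p = 0.123), or 1.21 with the block (adjusted p = 0.0706), and the blocked call was also lost without any 1 of the 3 treated day 3 arrays (adjusted p = 0.0582 to 0.0811). Because the lowest values lay near or under the filter, the size of the fold is uncertain; with a floor of 50 it was 1.16 (adjusted p = 0.0335). The difference between the effects at the days was 0.86 ± 0.90 (adjusted p = 1.00).

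Against day 0 medium, contrasts that were added after the first fit was seen, Hey1 rose by 2.57 ± 0.63 in treated day 1 (adjusted p = 0.0338, and 0.0099 with the block) and by 2.96 ± 0.63 in treated day 3 cultures (adjusted p = 0.0247, and 0.00471 with the block). All 3 day 0 values lay under the filter, so the size of these folds is uncertain. With a floor of 50 they were 0.85 (adjusted p = 0.111) and 1.24 (adjusted p = 0.0323), and with no filter both calls were lost (adjusted p = 0.0828 and 0.0569). GP day 1 and GP day 3 differed from day 0 by 1.30 ± 0.63 and 0.82 ± 0.63, neither called (adjusted p = 1.00 for both). These 4 contrasts share the day 0 arrays, and the later groups differ from day 0 in both medium and time. Without the block, leaving out any single array of either group lost the treated day 1 call (adjusted p = 0.0615 to 0.124), and the treated day 3 call held only without treated day 3 replicate 3 (adjusted p = 0.0417), with 0.0609 to 0.106 without the others. With the block the treated day 3 call held without each array (adjusted p = 0.00844 to 0.0280), and the treated day 1 call was lost without medium day 0 replicate 1 or treated day 1 replicate 3 (adjusted p = 0.0517 and 0.0574). Over the 5 groups together Hey1 passed the F test (adjusted p = 0.0375, and 0.00896 with the block); without the block this held without GP day 1 replicate 3 or any GP day 3 array (adjusted p = 0.0017 to 0.0458) and was lost without any other single array (adjusted p = 0.0529 to 0.102) and without the whole of replicate 1 or 2 (adjusted p = 0.391 and 0.554).

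Hes1, the best known direct target of Notch, was at 63.6, 73.5 and 122.2 in medium day 0. GP cultures had 78.3, 82.8 and 119.3 at day 1, and 59, 88.9 and 61.8 at day 3. Treated cultures had 88, 84 and 113.3 at day 1, and 75.6, 119.4 and 82.6 at day 3. The groups overlapped for each neighbouring pair in the order of their means. Treated minus GP was 0.04 ± 0.28 at day 1 and 0.40 ± 0.28 at day 3, neither called (adjusted p = 0.994 and 0.541), and the F test over the 5 groups was not passed (adjusted p = 0.868). Within replicates 1, 2 and 3 the day 3 difference was 0.36, 0.43 and 0.42, above 0 in each, and the day 1 difference was 0.17, 0.02 and -0.07. The difference between Hes1 and Hey1 was not tested.

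**Figure D3:**
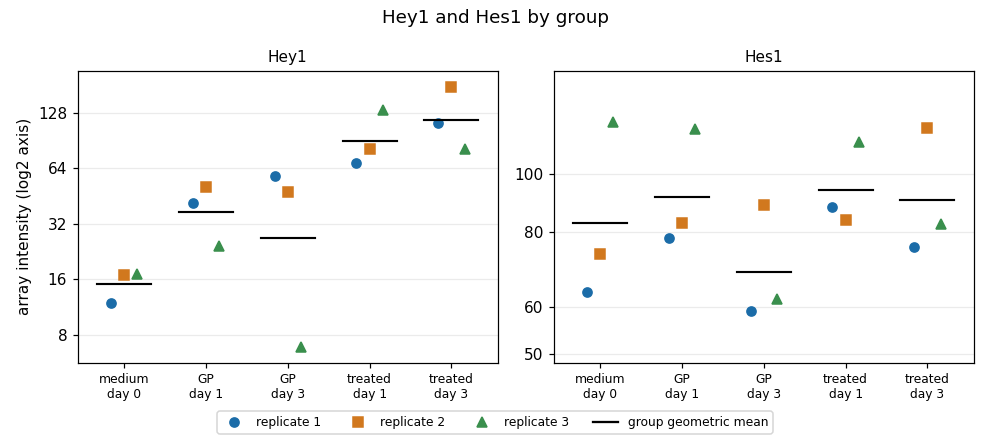
Intensity on a log2 axis for Hey1 and Hes1 by group; points are arrays, coloured and shaped by replicate, and black bars are group geometric means. The 6 treated Hey1 values, 68.2 to 177.4, lie above the other 9, while Hes1 values of the groups overlap.

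Among the 7 tested probe sets of the 5 genes, 0 were called for treated against GP at day 1 and 0 at day 3 without the block, where 0.926% and 4.11% of all tested probe sets were called; 1 and 2 of the 7 had an unadjusted p under 0.05. With the replicate block, day 3 gave 2 of 7, Hey1 higher and Notch3 lower, beside 13.8% of all, and day 1 gave 0 beside 4.99%. Groups did not overlap at day 3 for 3 of the 7 (Hey1 higher, Notch1 97497_at and Notch3 lower) beside 20.1% of all, and at day 1 for 1 (Hey1) beside 17.1%. Against day 0 medium, Hey1 was apart from day 0 in treated day 1 (beside 20.5% of all), and Hey1 and Notch3 were apart in treated day 3 (beside 19.4%). In GP cultures Hey1 was above day 0 at day 1 (beside 9.18% apart) and Notch1 97497_at at day 3 (beside 7.82% apart). In the fit without the block, 1 of 7 was called in treated day 1 and 1 in treated day 3 against day 0, Hey1 each time, where 3.98% and 2.62% of all were called; with the block these were also Hey1, beside 12% and 11.7%. The F test called 1 of 7, Hey1, beside 5.88% of all, and with the block 1 of 7 beside 19.6%. GP day 1 against day 0, GP day 3 against GP day 1, treated day 3 against treated day 1, GP day 3 against day 0 and the difference between the days gave 0 of 7 each, beside 0.242%, 0.711%, 0.148%, 0% and 0%; in these, 0, 1, 1, 0 and 0 of the 7 had an unadjusted p under 0.05. The median log2 difference of the 7 was -0.02 at day 1 and -0.23 at day 3, and that of all tested probe sets was -0.004 and 0. These 7 passed the filter on signal, and the other 5 probe sets of members did not.

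Of 53 further genes of the pathway, 29 were on the array and 24 were tested, on 26 probe sets; Adam17, Hes2, Hes3, Hes5 and Tle4 were on the array but below the filter. At day 1 treated against GP gave 0 higher and 2 lower (Rbpj and Kat2b), beside 0.295% higher and 0.631% lower over all. At day 3 it gave 0 higher and 1 lower (Rbpj), beside 2.03% and 2.08%. With the replicate block day 3 gave 1 higher (Lfng) and 4 lower (Rbpj, Kat2b, Psen2 and Hes6), beside 6.84% and 6.99%. Against day 0, treated day 1 gave 2 of the 24 called without the block and 3 with it, beside 3.98% and 12% over all. Treated day 3 against day 0 gave 1 and 2, beside 2.62% and 11.7%. The F test was passed by 2 without the block and 5 with it, beside 5.88% and 19.6%.

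Rbpj, the DNA-binding protein shared by the 4 receptors' intracellular domains, was at 333.5, 308.7 and 387.6 in medium day 0. GP cultures had 273.3, 268.9 and 223.1 at day 1, and 354.2, 250.3 and 314.6 at day 3. Treated cultures had 151.8, 109.3 and 93.7 at day 1, and 147.7, 120.6 and 140.4 at day 3. All 6 treated values lay below all 9 others, as in 1.85% of all tested probe sets and in 3 of the 26 of other pathway genes (Rbpj, Kat2b and Psen2). Rbpj fell by 1.13 ± 0.20 on the log2 scale in treated against GP cultures at day 1 (adjusted p = 0.0165, and 0.00168 with the block) and fell by 1.16 ± 0.20 at day 3 (adjusted p = 0.00495, and 0.000626 with the block). The difference was between -0.85 and -1.30 in each replicate and day, and the day 3 and day 1 effects differed by -0.03. Against day 0 medium, treated day 1 and day 3 were lower by a log2 difference of -1.56 (adjusted p = 0.00096) and -1.33 (adjusted p = 0.0029). GP day 1 was also below day 0 in each replicate, with a log2 difference of -0.43 ± 0.20 that was not called. Its values did not overlap those of day 0, and these groups were apart in 9.18% of all tested probe sets. The day 3 call held without each single array and was lost without the whole of replicate 1 or 2 (adjusted p = 0.133 and 0.193); without the block the day 1 call was lost without 4 of the 6 arrays, GP day 1 replicates 1 and 2 and treated day 1 replicates 2 and 3 (adjusted p = 0.0553 to 0.0816), and with the block it held without each (adjusted p = 0.0027 to 0.0178). The mouse genome carries Rbpj pseudogenes with similar sequence, and signal from them could not be told apart.

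Kat2b, an acetyltransferase that serves as a coactivator, was at 251.4, 293.5 and 303.8 in GP day 1 and at 181.1, 184.8 and 198.1 in treated day 1 cultures. GP day 3 had 272.6, 270.5 and 318.8, treated day 3 had 220.2, 219.6 and 224.2, and medium day 0 had 302.4, 282.5 and 282.5. All treated values were below all others, one of the 3 such probe sets named above, and the day 1 difference of -0.59 ± 0.13 was called (adjusted p = 0.0477, and 0.00886 with the block). That call was lost without any single array (adjusted p = 0.0697 to 0.208) and with each array scaled to a common median (adjusted p = 0.336). Against day 0, Kat2b fell by 0.62 ± 0.13 in treated day 1 (adjusted p = 0.0131), and the treated day 3 difference of -0.39 was called only with the block (adjusted p = 0.0392, against 0.143 without it). The day 3 difference from GP of -0.37 ± 0.13 was called only with the block (adjusted p = 0.0397, against 0.127 without it).

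Lfng, the fringe glycosyltransferase that alters which ligands a Notch receptor answers to, was at 26.7, 33 and 21.2 in GP day 3 and at 54.2, 48.9 and 49 in treated day 3 cultures. Every treated day 3 value was above every GP day 3 value, and 20.1% of all tested probe sets were apart there in either direction. The difference for Lfng was 0.93 ± 0.27 (adjusted p = 0.0753, or 0.0313 in the blocked fit). In GP day 1, treated day 1 and day 0 cultures it was at 25.9 to 48.1, 51.9 to 65.1 and 34.6 to 49. Psen2, a subunit of the gamma-secretase that cuts Notch, was at 84.2, 80 and 93.1 in GP day 3 and at 46.2, 47.0 and 60.7 in treated day 3 (-0.75 ± 0.23, adjusted p = 0.0891, or 0.0357 in the blocked fit); its probe set suffix marks a shared sequence. Hes6, a Hes protein that counteracts Hes1, was at 142.9, 151.7 and 105.2 in GP day 3 and at 80.2, 118.9 and 71.7 in treated day 3 (-0.58 ± 0.24, adjusted p = 0.226, and 0.0447 with the block). The values of Hes6 overlapped between treated and GP cultures at day 3, and those of Psen2 did not, as in 20.1% of all tested probe sets. In day 0, GP day 1 and treated day 1, Psen2 was at 61.1 to 92.8, 63.5 to 78 and 35.8 to 60. Hes6 there was at 95.6 to 114, 83.1 to 98.3 and 46.9 to 81.7. Against day 0, GP day 3 differed by 0.36 (Hes6), 0.20 (Psen2) and -0.62 (Lfng). Treated day 3 differed from day 0 by -0.22 (Hes6), -0.55 (Psen2) and 0.31 (Lfng). None of these differences from day 0 was called without the block. With the block Hes6 also fell by 0.74 ± 0.18 in treated day 1 against day 0 (adjusted p = 0.0148, against 0.12 without the block). The F test over the 5 groups was passed only with the block by Hes6 (adjusted p = 0.00642, against 0.0897), Psen2 (0.0313, against 0.0912) and Lfng (0.0407, against 0.101). With the block 19.6% of all tested probe sets passed it. Each of the 4 day 3 calls made only with the block (Kat2b, Lfng, Psen2 and Hes6) was lost in most of the 6 fits that left out 1 array.

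**Figure D4:**
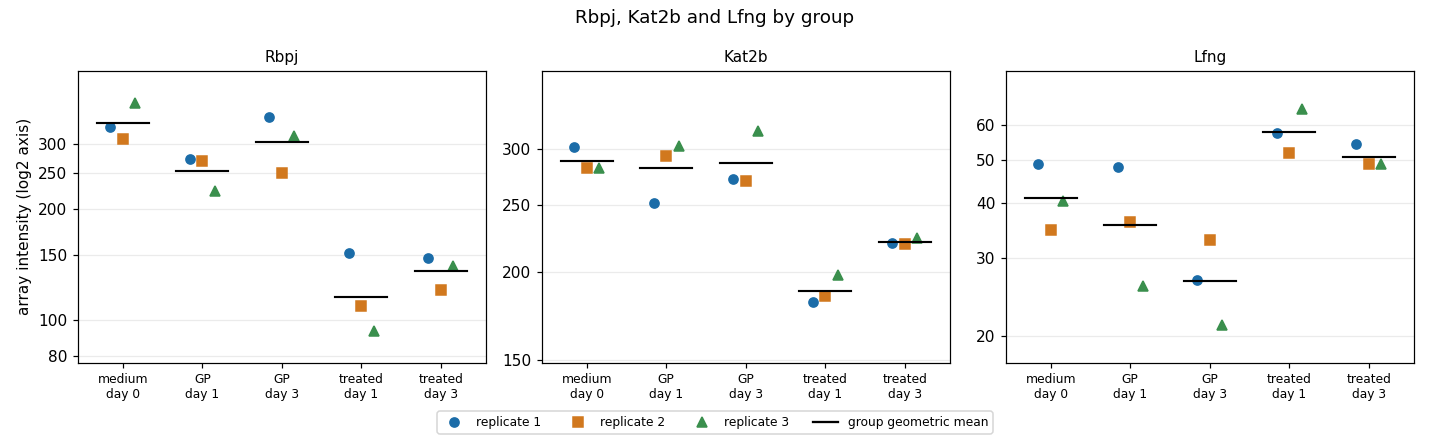
Intensity on a log2 axis for Rbpj, Kat2b and Lfng by group; points are arrays, coloured and shaped by replicate, and black bars are group geometric means. The treated Rbpj values, 93.7 to 151.8, lie below all others, 223.1 to 387.6.

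**Figure D5:**
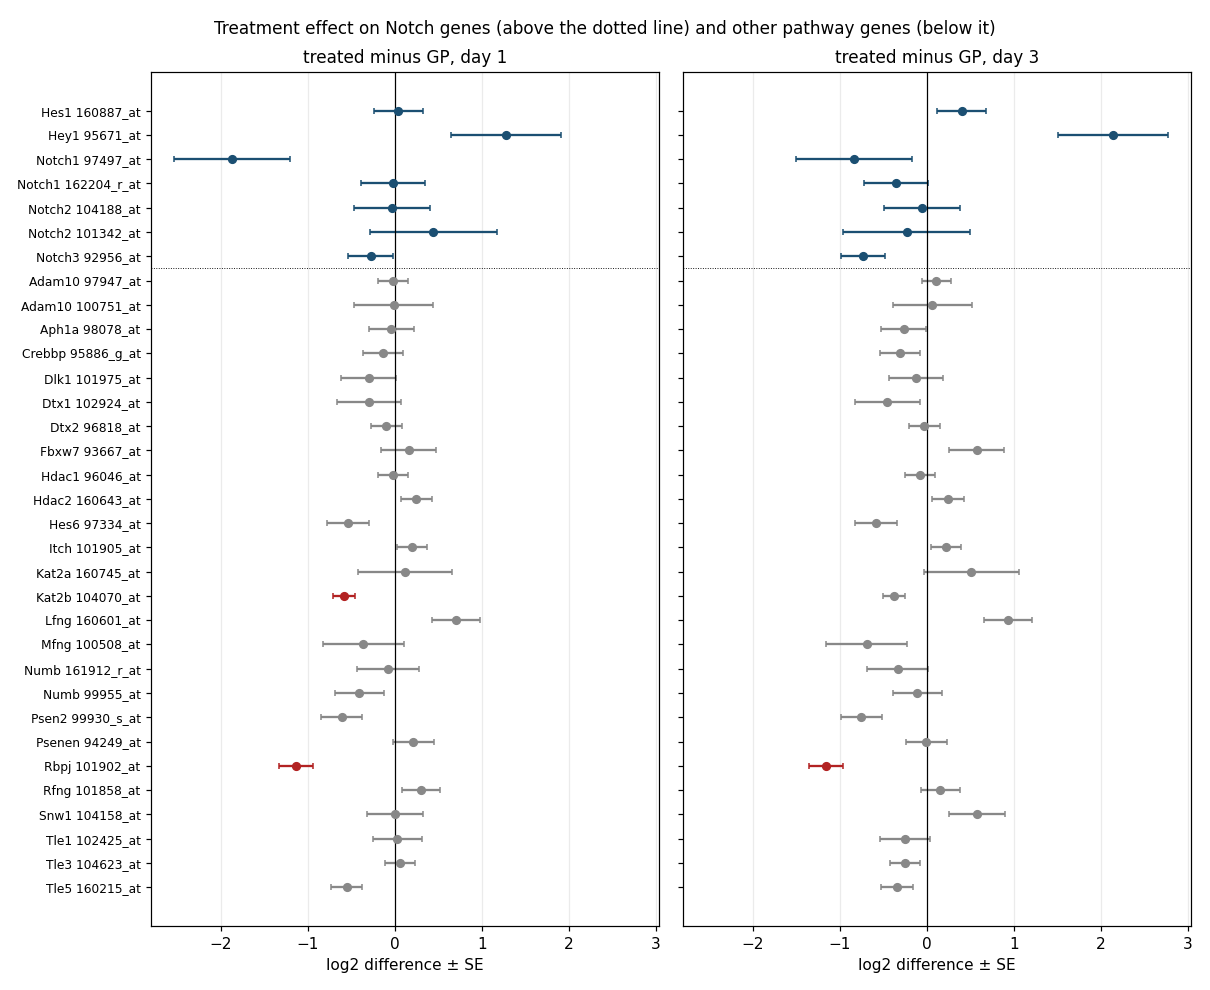
Log2 difference of treated minus GP cultures with its standard error (bars) at day 1 and day 3 from the fit without the replicate block, for the 7 tested member probe sets (above the dotted line) and 26 probe sets of other pathway genes (below it). Red marks an adjusted p under 0.05: Rbpj and Kat2b at day 1, Rbpj at day 3.

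The genes whose log2 intensity followed the 3 member probe sets of smallest F test p most closely over the 15 arrays, with each replicate's mean removed, were Polr1e (r = 0.91), Alyref (0.90) and Eed (0.90) for Hey1. With the replicate means kept, r was 0.74, 0.83 and 0.56. For Notch1 97497_at they were Ociad1 (0.94), Cpsf7 (0.92) and Rcor1 (0.91), with r of 0.87, 0.89 and 0.84 when the means were kept. Notch1 97497_at had its lowest value, 9.2, in treated day 1 replicate 1, and r without that array was not computed. All 3 of these genes had their largest SD in treated day 1, at 141, 61.1 and 53.9. For Notch3 the closest genes were Ppp1r15a (0.91), Tnk2 (0.91) and Tcf7l1 (0.88), with r of 0.38, 0.60 and 0.71 when the means were kept. These correlations describe arrays that share preparations and carry no test.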

How the data were processed

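RNA of 15 MC3T3 samples was measured on single-colour oligonucleotide arrays, 3 per group. The deposited values are linear intensity values per probe set; the software behind them and any genome build are not given in the sources used here. From 12488 probe sets, 66 controls were left out, values under 2.8 were set to 2.8, log2 was taken and probe sets under the 40th percentile of mean log2 signal were left out. Names came from GEO's platform annotation, for probe sets with 1 symbol. Groups were fitted with limma 3.58.1 (lmFit and eBayes with a mean trend) in R 4.3.3, with 1 coefficient per group, 10 residual degrees of freedom and Benjamini-Hochberg adjustment. The script was tested on simulated data.

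Replicate numbers come from the preparation number in the labels. Deviations from group means correlated at 0.19 to 0.703 for the 30 pairs with the same number and at -0.566 to 0.255 for the 60 with different numbers, so the numbers were taken as pairs and the fit with the replicate as a block is given where it changes a call. Alternatives changed the normalization, floor, filter, trend, array weights, groups fitted, and arrays kept; the closing section gives their effect. The number of arrays limits the precision.

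Members and lists were chosen with earlier results of these data known. All member probe sets are described, and every other pathway gene past the threshold in a contrast is named. The 3 contrasts of GP day 3, treated day 1 and treated day 3 against day 0 and the blocked fits without single arrays were added after the first fit was seen.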

Additional observations from a re-analysis of the deposited data

How the results depend on the processing

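The number of member probe sets called for treated against GP at day 3, 0 without the replicate block, was 2 with it, and 1 with quantile normalization, a floor of 50 or array weights; leaving out arrays gave 0 to 1. Among the member probe sets the block changed no call other than these of Hey1 and Notch3. At day 1 it was 0 to 1 when arrays were left out. For treated day 1 against day 0 the count of 1 became 0 with a floor of 50, no filter or a filter at the 60th percentile, which leaves Hey1 untested, and was 0 to 1 when arrays were left out. For treated day 3 against day 0 it became 0 with no filter or the 60th percentile filter, and was 0 to 2 when arrays were left out. The F test count of 1 became 0 with no filter, the 60th percentile filter or no mean trend and 2 with array weights (Hey1 and Notch1 97497_at), and was 0 to 1 when arrays were left out, where the 1 was Notch1 97497_at in place of Hey1 without treated day 1 replicate 3.

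Some differences changed sign, and those of treated minus GP are given first. At day 1, Notch1 162204_r_at was 0.015 with median scaling, and Notch2 104188_at was 0.005 with median scaling and 0.019 with array weights. At day 3, Notch2 104188_at was 0.124 with array weights, and Notch2 101342_at was 0.398 with array weights, against -0.23 in the fit without the block. With a floor of 50 it was 0.158, but 5 of the 6 arrays were then at the floor, so that the sign came from 1 array, and all 6 day 1 arrays of Notch1 162204_r_at were at that floor, which gives no difference to read. Rbpj's difference between the days was 0.091 with array weights, against -0.03 in the fit without the block. Hey1 in GP day 3 against GP day 1 was -0.47 in that fit. It was 0.028 with array weights and 0.064 with a floor of 50, where 4 of the 6 arrays were at the floor. The other causes were not tested.

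With arrays left out, day 1 values ranged from -0.094 to 0.227 for Hes1, from -0.321 to 0.501 for Notch1 162204_r_at, from -0.371 to 0.370 for Notch2 104188_at and from -0.096 to 1.024 for Notch2 101342_at. Day 3 values ranged from -0.287 to 0.253 for Notch2 104188_at and from -1.266 to 0.454 for Notch2 101342_at. The difference between the days ranged from -0.120 to 1.417 for Hey1 and from -0.180 to 0.168 for Rbpj, and Hey1 in GP day 3 against GP day 1 from -1.032 to 0.505. Scaling each array to a common median moved an array's median by up to 0.238 on the log2 scale.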
